A study of Rattus norvegicus with 30 samples.

Results

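Angptl7 was followed across early chondrogenesis, osteogenesis and adipogenesis of rat bone marrow mesenchymal stem cells (BMSCs). It is 1 gene of the 9999 gene names in the files, taken by its gene symbol, and it was chosen by its measured CPM in chondrogenesis against 0 h and against the other lineages, which was already known from these samples. Its levels are therefore given as a description, without a test. The cells came from the bone marrow of female Sprague Dawley rats of 3 weeks of age, and they were induced at passage 2 in 12-well plates with a commercial osteogenic (OS), adipogenic (AD) or chondrogenic (CH) differentiation medium. Cells were taken at 3, 12 and 72 h in each lineage, with 3 samples per group, and 3 samples of undifferentiated cells served as 0 h, which made 30 samples in 10 groups. Each sample pooled the cells of 3 cultures. The labels do not say which rat a culture came from, so the spread between samples may be partly technical. The same 0 h samples served all 3 lineages, no uninduced cells of the later times were analysed here, and what the media contained is not given in the sources used here. The effect of a medium and the effect of time in culture therefore cannot be told apart in a comparison with 0 h.

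Angptl7 encodes angiopoietin-like 7, a secreted glycoprotein of the angiopoietin-like family. Proteins of this family have a coiled-coil part and, in most members, a fibrinogen-like part, and they resemble the angiopoietins without binding the angiopoietin receptor Tie2 in the classical way. ANGPTL7 is best known from the eye, where it is made in the cornea and the trabecular meshwork, is deposited with the extracellular matrix and rises with glucocorticoids. Chondrogenesis is driven by the transcription factor Sox9, usually under TGF-β, and brings a matrix of aggrecan and type II and type IX collagen.

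Expression is given in CPM, the reads of a gene scaled by the total reads of its sample, which holds no gene length, so levels of different genes are not compared. The sample totals lay between 3899609 and 9046719 reads (median 6579543), lowest in chondrogenesis at 72 h. A signal of 3 reads corresponded to 0.332 to 0.769 CPM. This floor and all counting intervals cover counting error only, because copies made by PCR were counted like separate molecules. Every sample had its nearest neighbour within its own group. In adipogenesis, replicate 3 at 72 h had 74 genes and replicate 1 at 12 h had 24 genes that lay more than 2 log2 units from the mean of the other replicates. Replicate 3 at 3 h of osteogenesis had 18 such genes. Genes that every cell uses were listed near 0, with Actb at no more than 5.39 CPM, Vim at no more than 1.58 CPM and Ppia at 0 in 23 of 30 samples. A value at or near 0 in these files is therefore not read as absence of the transcript. In bulk samples, more cells that make a transcript and more transcript per cell cannot be told apart.

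At 0 h Angptl7 was listed at 0.430, 0.279 and 0.758 CPM, which is 3, 2 and 5 reads. After 3 h of chondrogenic induction it was at 490, 500 and 504 CPM. After 12 h it was at 350, 473 and 291 CPM. After 72 h it reached 9685, 7289 and 7432 CPM. Every chondrogenic sample lay far above all 0 h samples, and the 72 h samples lay above all others of the series. The group means were 0.489 ± 0.245 CPM (SD, n = 3) at 0 h, 498 ± 6.87 CPM (SD, n = 3) at 3 h, 371 ± 93.1 CPM (SD, n = 3) at 12 h and 8135 ± 1344 CPM (SD, n = 3) at 72 h. Because the 0 h samples held only 10 reads of Angptl7 together, the size of the fold change was limited by counting at 0 h. The ratio of pooled read rates to 0 h was 1035 at 3 h, with an exact conditional 95% interval of 562 to 2158. It was 771 (419 to 1608) at 12 h and 16733 (9098 to 34894) at 72 h. On the log2(CPM + 1) scale, which understates changes from such low levels, the differences from 0 h were 8.40, 7.95 and 12.42.

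**Figure D1:**
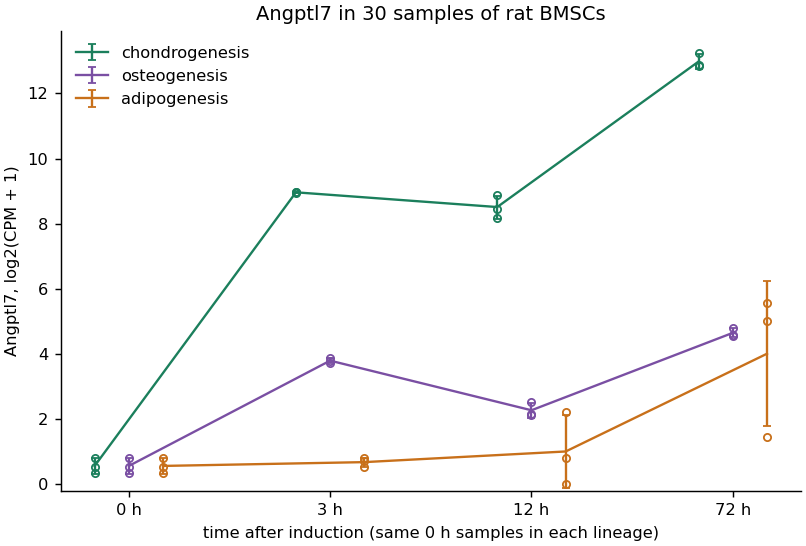
Angptl7 in the 30 samples, as log2(CPM + 1) on the y axis against time after induction on the x axis, with circles for samples and lines through group means with SD bars (n = 3). The same 0 h samples are drawn for each lineage, and the chondrogenic samples lie above the samples of both other lineages at 3, 12 and 72 h.

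The time course of Angptl7 in chondrogenesis had an early step, a plateau or dip and a late step. Between 3 and 12 h the mean was 1.34-fold lower, and the samples of these times did not overlap as deposited (490 to 504 against 291 to 473 CPM). After median-ratio scaling of the libraries they did overlap, at 426 to 454 for 3 h and 279 to 433 for 12 h, and as a share of the reads of listed genes they did not. The mean at 3 h was 1.26 times and 1.34 times that at 12 h on these scales, so the non-overlap depended on the scaling. Between 12 and 72 h the mean was 21.9-fold higher, with no overlap. At 72 h Angptl7 took 1.16 to 1.43% of the reads of all listed genes and ranked at place 9 of 9999 names by CPM in each of the 3 samples, which is a place by share of reads, without gene length. At 3 h it had ranked between places 295 and 312, and at 0 h between places 3199 and 4029.

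Among the 4363 genes tested, those that reached 1 CPM in 3 samples or more, Angptl7 had the highest log2 difference from 0 h at each chondrogenic time. The next gene was Sema7a (6.89) at 3 h, Crispld2 (7.67) at 12 h and Igfbp5 (12.32) at 72 h. At 72 h the margin between Angptl7 and Igfbp5, 12.42 against 12.32, was smaller than the SD of Angptl7 at 0 h on that scale, 0.23. These places describe how the gene was chosen and were not tested.

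Osteogenesis also had more Angptl7 than 0 h, at a far lower level. At 3 h of osteogenesis the samples were at 12.1, 13.7 and 12.9 CPM, at 12 h at 3.47, 4.78 and 3.35 CPM, and at 72 h at 22.7, 27.0 and 22.8 CPM. All 9 osteogenic samples lay above all 0 h samples and below all chondrogenic samples. The means were 12.9 ± 0.840, 3.87 ± 0.796 and 24.1 ± 2.47 CPM (SD, n = 3 each). The fall between 3 and 12 h was 3.33-fold, and the rise from 12 to 72 h was 6.24-fold, both without overlap between the samples. The fall at 12 h in osteogenesis also had no overlap after median-ratio scaling, at 11.5 to 13.2 for 3 h and 2.94 to 4.17 for 12 h. The ratios of read rates to 0 h were 26.7 (14.3 to 56.5) at 3 h, 8.03 (4.14 to 17.4) at 12 h and 50.0 (27.0 to 105) at 72 h.

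In adipogenesis Angptl7 stayed near the 0 h level early and varied widely between replicates later. At 3 h it was listed at 0.442, 0.629 and 0.744 CPM, which overlapped with 0 h. At 12 h it was at 3.66, 0.737 and 0 CPM, and the highest of these values came from replicate 1, the library that stood apart at this time. At 72 h it was at 46.3, 31.0 and 1.74 CPM, and the lowest value came from replicate 3, which stood apart at that time. Without these libraries, the mean at 12 h changed from 1.46 ± 1.93 CPM (SD, n = 3) to 0.368 ± 0.521 CPM (SD, n = 2), and the mean at 72 h from 26.4 ± 22.6 CPM (SD, n = 3) to 38.7 ± 10.8 CPM (SD, n = 2). All 3 samples of 72 h lay above 0 h. The ratios of read rates to 0 h were 1.22 (0.494 to 3.11) at 3 h, 3.41 (1.61 to 7.83) at 12 h and 52.7 (28.4 to 111) at 72 h. Replicate 1 held 25 of the 29 reads at 12 h, and without it the ratio was 0.766 (0.175 to 2.66). Without replicate 3 the ratio at 72 h was 80.2 (43.2 to 168).

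Ordered by mean CPM, the groups ran from 72, 3 and 12 h of chondrogenesis through 72 h of adipogenesis, 72, 3 and 12 h of osteogenesis and 12 and 3 h of adipogenesis to 0 h. Neighbours in this order had overlapping samples in 4 cases, namely 72 h of adipogenesis and of osteogenesis, 12 h of osteogenesis and of adipogenesis, 12 and 3 h of adipogenesis, and 3 h of adipogenesis and 0 h. The other neighbours did not overlap. Without replicate 1 the mean of 12 h of adipogenesis, 0.368 CPM, fell below those of 3 h of adipogenesis, 0.605 CPM, and of 0 h, 0.489 CPM. At equal times the chondrogenic mean was 38.6, 96.1 and 337 times the osteogenic mean and 823, 254 and 309 times the adipogenic mean at 3, 12 and 72 h. The corresponding log2 differences were 5.17, 6.24 and 8.33 against osteogenesis and 8.29, 7.51 and 8.97 against adipogenesis. Without replicate 1 at 12 h and replicate 3 at 72 h of adipogenesis, the ratios at these times were 1008 and 210, and the remaining adipogenic samples were below every chondrogenic sample. Without replicate 3 at 3 h of osteogenesis the ratio at 3 h was again 38.6.

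The other members of the family were examined next. Angptl1 and Angptl6 were listed at no more than 1.25 and 0.890 CPM in any sample and were not tested. Of 6 family genes fixed beside Angptl7, 4 were listed and 2, Angptl2 and Angptl8, were tested. With limma on log2(CPM + 1), 1 of these 2 was called higher and 0 lower at 72 h of chondrogenesis against 0 h, where 11.6% of all 4363 genes were called higher and 6.37% lower (at least 1 in log2 fold change and a Benjamini-Hochberg adjusted p under 0.05).

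Angptl8, a secreted regulator of lipoprotein lipase that lacks the fibrinogen-like part, was at 13.2, 14.9 and 16.2 CPM at 0 h and at 49.2, 46.0 and 44.7 CPM at 72 h of chondrogenesis. All 72 h samples lay above all 0 h samples, and the log2 fold change was 1.60 (SE 0.25, limma adjusted p = 5.85e-06). It rose already at 3 h, by 1.94 (SE 0.25, limma adjusted p = 2.18e-07), and at 12 h was at 19.6 ± 4.73 CPM (SD, n = 3), a log2 difference of 0.37 that was not called. At 3 h of osteogenesis Angptl8 was also called higher than at 0 h, by 1.23 (limma adjusted p = 0.000195), a value just under 1 after median-ratio scaling and 0.98 after scaling to the listed genes, and the difference of 0.71 between chondrogenesis and osteogenesis at 3 h was not called. Without replicate 3 of osteogenesis at 3 h, which stood apart, these values were 1.02 (limma adjusted p = 0.00306) and 0.92, which was again not called. Angptl8 fell in the other lineages at 72 h, to 6.96 ± 2.19 CPM (SD, n = 3) in osteogenesis and 1.40 ± 0.846 CPM (SD, n = 3) in adipogenesis, with log2 fold changes of -1.02 (limma adjusted p = 0.00226) and -2.77 (limma adjusted p = 2.68e-10). The osteogenic call was lost without replicate 1 of that group, at -0.77 (limma adjusted p = 0.0330), and without replicate 3 of 0 h, at -0.96 (limma adjusted p = 0.0136).

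Angptl2, a secreted glycoprotein tied to inflammation and matrix remodelling, was already high at 0 h, at 1720, 1788 and 1618 CPM. In chondrogenesis it fell to 819 ± 24.4 CPM at 3 h and 769 ± 83.5 CPM at 12 h (SD, n = 3), with log2 fold changes of -1.06 and -1.16 (limma adjusted p = 4.66e-06 and 1.5e-06). At 72 h it was at 1791, 1506 and 1467 CPM, overlapping with 0 h, and the log2 difference of -0.11 was not called. In the other lineages it stayed low, at 260 ± 17.7 CPM in osteogenesis and 148 ± 15.1 CPM in adipogenesis at 72 h (SD, n = 3). The difference of chondrogenesis at 72 h was 2.60 (SE 0.17, limma adjusted p = 7.68e-14) against osteogenesis and 3.41 (SE 0.17, limma adjusted p = 7.93e-17) against adipogenesis. Both tested relatives were thus higher in chondrogenesis than in either other lineage at 72 h, where 11.1% of all genes were called higher against osteogenesis and 16.5% against adipogenesis.

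Of 5 genes of angiopoietins and their Tie receptors, Tek and Angpt2 were listed. Tek, which encodes the receptor Tie2, was tested and not called at 72 h of chondrogenesis, with values of 1.54, 1.11 and 0.445 CPM against 0.143, 0 and 0.910 CPM at 0 h. It rose at 3 h of osteogenesis and of adipogenesis, to 2.47 ± 1.37 and 3.19 ± 0.596 CPM (SD, n = 3 each), with log2 fold changes of 1.33 and 1.68 (limma adjusted p = 0.00568 and 0.00065). The osteogenic value was 1.70 (limma adjusted p = 0.00127) without replicate 3, the lowest sample of that group. It also rose at 72 h of osteogenesis, to 4.74 ± 1.27 CPM (SD, n = 3, log2 fold change 2.12, limma adjusted p = 6.34e-05). Angpt2, an angiopoietin, was listed at no more than 0.595 CPM in any sample. Of 14 other genes of proteins with a fibrinogen-like part, 4 were listed and only Fgl2, a secreted and membrane-bound fibrinogen-like protein of the immune system, was tested. Fgl2 rose at 72 h of chondrogenesis from 1.01 ± 0.215 to 4.39 ± 1.88 CPM (SD, n = 3, log2 fold change 1.36, limma adjusted p = 0.000476). It was lower there than at 72 h of osteogenesis, by 1.32 on the log2 scale (limma adjusted p = 0.000623), which is the opposite order to that of Angptl7. Larger rises of Fgl2 from 0 h were called in osteogenesis, by 3.34, 1.99 and 2.68 at 3, 12 and 72 h (limma adjusted p = 1.53e-10, 1.85e-06 and 2.23e-08). Another was called at 3 h of adipogenesis, by 3.78 (limma adjusted p = 1.19e-11). At 3 and 12 h of chondrogenesis Fgl2 was not called.

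**Figure D2:**
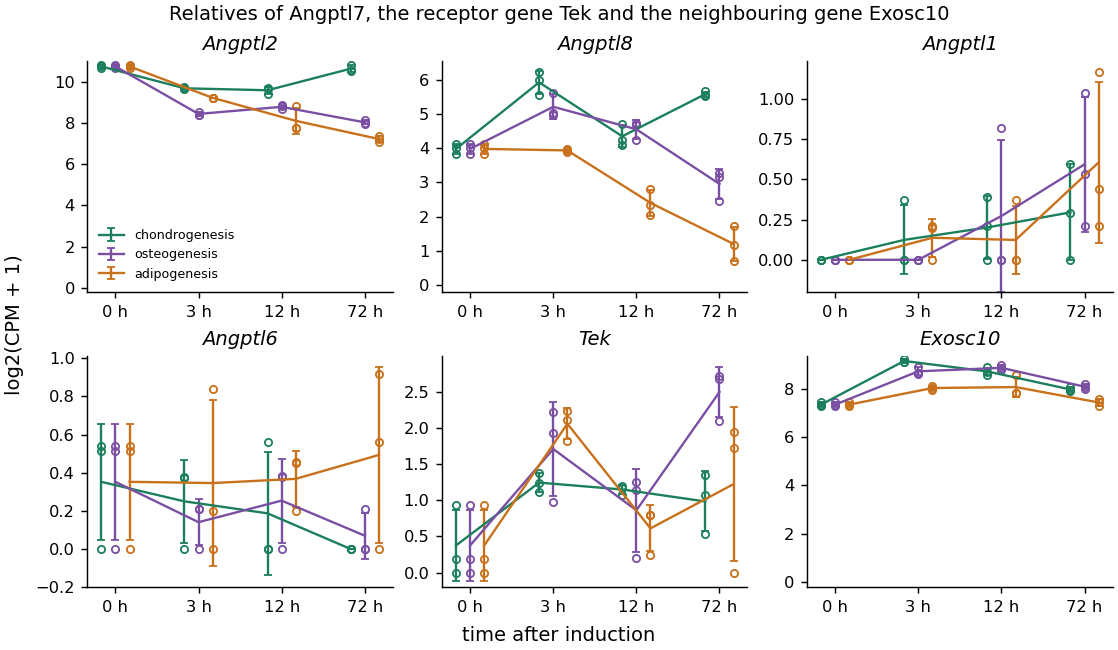
Relatives of Angptl7, the receptor gene Tek and the neighbouring gene Exosc10 as log2(CPM + 1) on the y axis against time after induction on the x axis, with circles for samples and lines through group means with SD bars (n = 3). At 72 h Angptl2 and Angptl8 lie higher in chondrogenesis than in the other lineages, while Angptl1 and Angptl6 stay at or below 1.25 CPM in every sample.

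In the RefSeq annotation of rat assembly GRCr8, Angptl7 lies within the span of Mtor, the gene of a kinase that controls growth, and Disp3, Exosc10 and Srm lie near it. Whether reads were counted by strand is not stated, so reads of overlapping transcripts of Mtor could have been assigned to either gene. Mtor itself was listed at 0 in 29 of 30 samples and at 1 read in the remaining sample, and Disp3 was listed at no more than 0.221 CPM. Exosc10, which encodes a nuclease of the RNA exosome, was at 162 ± 9.98 CPM at 0 h and at 566 ± 33.5, 420 ± 46.7 and 250 ± 16.7 CPM at 3, 12 and 72 h of chondrogenesis (SD, n = 3 each). It rose at 3 and 12 h by 1.80 and 1.37 on the log2 scale (limma adjusted p = 3.29e-12 and 1.73e-09) and also in osteogenesis, by 1.37 and 1.52 (limma adjusted p = 1.0e-09 and 9.16e-11), calls that were lost with quantile normalization, which gave values just under 1. It was highest at 3 h of chondrogenesis, whereas Angptl7 was highest at 72 h. Srm, which encodes spermidine synthase, rose from 0.978 ± 0.490 CPM to 6.13 ± 1.76, 7.31 ± 1.34 and 6.89 ± 1.48 CPM (SD, n = 3 each), with log2 fold changes of 1.85, 2.09 and 2.01 (limma adjusted p = 5.09e-05, 1.12e-05 and 1.76e-05). Srm was also called higher than at 0 h in osteogenesis at each time, by 1.74, 1.54 and 1.14, and at 3 h of adipogenesis, by 1.35 (limma adjusted p = 0.00011, 0.000397, 0.011 and 0.00185). The call at 72 h of osteogenesis was lost without replicate 2 of 0 h, at 0.99, or replicate 1 of that group, at 0.91. Its difference between chondrogenesis and osteogenesis was not called at any time, while chondrogenesis was higher than adipogenesis at 12 and 72 h, by 1.67 and 1.79 (limma adjusted p = 0.000287 and 6.52e-05).

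Cartilage genes were examined in the samples with high Angptl7. Of 23 genes of cartilage matrix and its regulators, 17 were listed and 6 tested. Of these 6, Comp passed the filter on low values only through the 72 h samples of chondrogenesis, Prg4 only through those of adipogenesis, and Col11a2 would not have passed without the 0 h samples. The filter thus favoured a difference of these genes in comparisons with that group, and they are left out of the counts there. Comp and Prg4 stayed under 1 CPM outside the group that let them pass. They therefore could not be called in comparisons without it, though they are counted among the genes left. At 72 h of chondrogenesis against 0 h, 3 of the 4 others rose (Sox9, Col9a2 and Col9a3) and 0 fell, where 11.6% of all genes were called higher and 6.37% lower, and the median log2 fold change of the 4 was 3.16, against 0.007 over all tested genes. At 3 h and at 12 h of chondrogenesis only Sox9 rose of the 5 left without Col11a2, at times when 13.1% and 9.44% of all genes were called higher.

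Sox9, the master regulator of chondrogenesis, was at 46.6, 46.8 and 50.8 CPM at 0 h. It rose to 603 ± 36.8 CPM at 3 h, 638 ± 77.4 CPM at 12 h and 1299 ± 173 CPM at 72 h of chondrogenesis (SD, n = 3), with log2 fold changes of 3.62, 3.70 and 4.72 (SE 0.14, limma adjusted p = 2.69e-18, 1.09e-18 and 1.74e-21). Like Angptl7 it made an early step at 3 h, with no dip at 12 h in its mean. In osteogenesis Sox9 rose at 3 h to 101 ± 2.06 CPM and fell at 12 h to 18.3 ± 4.25 CPM (SD, n = 3), with log2 fold changes of 1.05 and -1.37 (limma adjusted p = 4.51e-07 and 2.65e-09). The rise at 3 h lay under the threshold of 1, between 0.68 and 0.82, with quantile normalization, median-ratio scaling, scaling to the listed genes and edgeR. In adipogenesis it fell at each time, with the lowest level, 5.58 ± 0.506 CPM (SD, n = 3), at 12 h and log2 fold changes between -1.45 and -2.90.

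Comp, a matrix protein of cartilage and tendon, was listed at 0, 0.139 and 0 CPM at 0 h and at 25.1, 20.3 and 19.3 CPM at 72 h of chondrogenesis. With 1 read at 0 h, the ratio of read rates was 445 with a counting interval of 79.2 to 17639. Col9a2, a chain of type IX collagen, was between 0.758 and 1.95 CPM at 0 h and at 46.4, 32.1 and 24.0 CPM at 72 h (log2 fold change 3.96, SE 0.34, limma adjusted p = 6.72e-11). Col9a3, another chain of that collagen, rose to 4.86 ± 1.44 CPM (SD, n = 3, log2 fold change 2.35, limma adjusted p = 3.03e-07). Col9a2 and Col9a3 were not called at 3 and 12 h of chondrogenesis, when Angptl7 was already above 290 CPM. Comp stayed under 1 CPM at these times and at 0 h, so it could not be called there. Col11a2, a minor fibrillar collagen of cartilage, and Prg4, which encodes the joint lubricant lubricin, did not pass the test at 72 h and stayed at or below 0.884 CPM there. Col2a1 and Acan, which encode type II collagen and aggrecan, were listed at no more than 0.769 CPM and at 0 at 72 h of chondrogenesis and were not tested.

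Genes known from the cornea and the trabecular meshwork, the tissues in which ANGPTL7 is best known, changed in both directions. Of 20 such genes 15 were listed and 7 tested. At 72 h of chondrogenesis 3 rose (Tgfbi, Mgp and Aqp1) and 1 fell (Lum), where 11.6% of all genes were called higher and 6.37% lower, and the median of the 7 was 0.21. Tgfbi, a matrix protein abundant in the cornea, was at 14.5, 13.7 and 16.2 CPM at 0 h and at 1616, 1559 and 1485 CPM at 72 h. It rose at every time, to 60.2 ± 10.1, 166 ± 18.5 and 1553 ± 65.4 CPM (SD, n = 3), with log2 fold changes of 1.94, 3.40 and 6.62 (SE 0.30, limma adjusted p = 3.99e-06, 2.22e-10 and 2.79e-17). Its mean was higher at 12 than at 3 h, where that of Angptl7 was lower, and at 72 h of osteogenesis it was at 17.1 ± 0.709 CPM (SD, n = 3), close to 0 h.

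Mgp, an inhibitor of calcification in cartilage and vessels, first fell and then rose in chondrogenesis, from 2652 ± 84.2 CPM at 0 h to 273 ± 14.2, 194 ± 16.1 and 9212 ± 1605 CPM (SD, n = 3), with log2 fold changes of -3.28, -3.77 and 1.78 (SE 0.23, limma adjusted p = 7.69e-13, 4.76e-14 and 1.84e-07). At 72 h Mgp was also high in osteogenesis, at 5194 ± 340 CPM, and adipogenesis, at 6627 ± 2464 CPM (SD, n = 3). Aqp1, a water channel, rose at 72 h to 2.67 ± 1.33 CPM (SD, n = 3, log2 fold change 1.40, limma adjusted p = 0.00304). Lum, a small leucine-rich proteoglycan, fell from 50.3 ± 4.69 to 8.72 ± 0.542 CPM (SD, n = 3, log2 fold change -2.40, limma adjusted p = 0.0121). Of the genes not called, Col8a2 was at 798, 760 and 703 CPM against 861, 873 and 851 CPM at 0 h, and Apod was at or below 1.11 CPM in both groups.

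Of 13 genes known to respond to TGF-β, 7 were listed and 3 tested, and all 3 rose at 72 h of chondrogenesis, where 11.6% of all genes were called higher, with a median of 2.93. Scx, a transcription factor of tendon and of early cartilage precursors, rose at 3, 12 and 72 h from 2.61 ± 0.673 CPM to 15.1 ± 0.495, 18.8 ± 1.12 and 26.2 ± 1.68 CPM (SD, n = 3), with log2 fold changes of 2.17, 2.47 and 2.93 (SE 0.33, limma adjusted p = 2.36e-06, 3.6e-07 and 1.28e-08). Postn, which encodes the matrix protein periostin, was at 0.143, 0.139 and 0.152 CPM at 0 h and at 48.0, 46.9 and 54.5 CPM at 72 h. With 1 read in each 0 h sample, its ratio of read rates was 345 with a counting interval of 117 to 1677. Ctgf, a matricellular growth factor, rose most at 3 h, to 63.8 ± 6.71 CPM (SD, n = 3, log2 fold change 1.95, limma adjusted p = 2.99e-05). Its log2 fold changes of 1.16 at 12 h and 1.07 at 72 h (limma adjusted p = 0.00825 and 0.0143) did not hold under all settings. At 12 h the value was 0.94 after median-ratio scaling and 0.97 (limma adjusted p = 0.0555) without replicate 2 of 0 h. At 72 h it was 0.88 (limma adjusted p = 0.0808) without replicate 2 of 0 h and 0.91 (limma adjusted p = 0.0711) without replicate 3 of that group. At 72 h of osteogenesis, Scx was at 0.357 ± 0.316 CPM and Postn at 2.04 ± 0.755 CPM (SD, n = 3). Chondrogenesis was higher than osteogenesis there in 2 of the 3 genes, Scx and Postn, by 4.35 and 4.09 on the log2 scale (limma adjusted p = 2.79e-12 and 6.52e-13), where 11.1% of all genes were called higher.

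All 4 listed genes of 15 known to respond to glucocorticoids were tested, and 2 rose at 72 h of chondrogenesis, where 11.6% of all genes were called higher, with a median of 0.84. Tsc22d3, which encodes the glucocorticoid-induced leucine zipper, was at 27.8 ± 2.98 CPM at 0 h and at 131 ± 18.1, 102 ± 4.43 and 492 ± 77.1 CPM at 3, 12 and 72 h of chondrogenesis (SD, n = 3), with log2 fold changes of 2.20, 1.85 and 4.09 (SE 0.15, limma adjusted p = 8.47e-13, 6.03e-11 and 2.8e-19). It rose in all 3 lineages at all times, except that quantile normalization gave 0.96 at 12 h of osteogenesis, and it reached 716 ± 102 CPM in osteogenesis and 406 ± 72.5 CPM in adipogenesis at 72 h (SD, n = 3). At 72 h the difference of Tsc22d3 between chondrogenesis and either other lineage was not called, at -0.54 against osteogenesis and 0.28 against adipogenesis. A link of Angptl7 to glucocorticoids was not tested. Mt2A, a metallothionein, rose at 72 h of chondrogenesis to 1025 ± 176 CPM (SD, n = 3, log2 fold change 1.52, limma adjusted p = 5.89e-11) but was higher at 72 h of osteogenesis and adipogenesis, at 2487 ± 26.3 and 4934 ± 922 CPM (SD, n = 3). The differences of chondrogenesis were -1.29 and -2.26 (limma adjusted p = 1.68e-09 and 4.95e-15). Nfkbia, an inhibitor of NF-κB, was at 580, 574 and 521 CPM and was not called, and Sgk1, a kinase gene, was listed at 0 in all 3 samples of 72 h of chondrogenesis.

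The cartilage, TGF-β, ocular and glucocorticoid lists were counted in the other lineages against 0 h. In osteogenesis 11.7%, 14.7% and 7.2% of all tested genes were called higher and 6.67%, 7.15% and 5.29% lower at 3, 12 and 72 h. After median-ratio scaling, the higher genes went from 63.7 to 47.4% of the calls at 3 h and from 67.2 to 46.5% at 12 h. Of the 5 cartilage genes left without Col11a2, Sox9 rose at 3 h and fell at 12 h and none was called at 72 h, and of the 3 TGF-β genes, Ctgf rose at 3 h, none was called at 12 h, and Postn rose and Scx fell at 72 h. Of these calls, those of Sox9 and Ctgf at 3 h were lost after median-ratio scaling, at 0.81 and 0.89, and that of Ctgf also without replicate 2 of 0 h, at 0.93. Of the 7 ocular genes, Lum and Mgp fell at 3 h, Lum, Mgp and Col8a2 fell at 12 h and none was called at 72 h. Of the 4 glucocorticoid genes, Tsc22d3 rose at 3 h, and Tsc22d3 and Mt2A rose at 12 and 72 h.

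In adipogenesis 12.4%, 8.14% and 6.19% of all tested genes were called higher and 6.42%, 5.55% and 9.08% lower at 3, 12 and 72 h. After median-ratio scaling, the higher genes went from 65.9 to 50.2%, from 59.5 to 41.7% and from 40.5 to 52.6% of the calls at these times. Of the 3 TGF-β genes, Ctgf fell at 3 h, by 1.54 on the log2 scale (limma adjusted p = 0.000577), and Ctgf and Scx fell at 12 and at 72 h. Of the 4 cartilage genes left at 72 h without Col11a2 and Prg4, Sox9 and Col9a2 fell. Prg4 was at 1.42, 1.95 and 5.23 CPM there and at no more than 0.445 CPM in every other sample. The fall of Ctgf at 72 h, which lay at the threshold of 1, was lost with edgeR, under median-ratio scaling (-0.85) and without replicate 3 (-0.56, limma adjusted p = 0.233), and that of Col9a2 was lost without replicate 2 of 0 h, at -0.91. Of the 7 ocular genes, Lum and Mgp fell at 3 h and Mgp and Col8a2 at 12 h, while at 72 h Lum and Mgp rose and Tgfbi and Col8a2 fell. The rise of Mgp lay at 0.97 without replicate 3 at 72 h, and that of Lum was not called in a fit on the 6 samples alone (limma adjusted p = 0.147). Kera, the remaining ocular gene called, passed the filter only through adipogenic samples. Tsc22d3 and Mt2A rose at each time of adipogenesis. At 3 and 12 h of chondrogenesis, with 4.88% and 5.0% of all genes called lower, none of the cartilage and TGF-β genes fell, while of the ocular genes Lum and Mgp fell and Tgfbi rose at both times.

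In the direct comparison with osteogenesis, 5.07% and 7.08% of all genes were called higher in chondrogenesis and 2.25% and 8.87% lower at 3 and 12 h, and at 72 h 11.1% higher and 8.55% lower. The higher genes at 72 h made up 56.4% of the calls, 63.5% after median-ratio scaling and 48.6% after scaling to the listed genes. Chondrogenesis was higher in 1 and 2 of the 6 cartilage genes at 3 and 12 h, in 3 of the 5 left without Comp at 72 h, and lower in none, with Sox9 among the higher genes at each time by 2.57, 5.07 and 5.30 on the log2 scale (limma adjusted p = 1.89e-14, 1.1e-21 and 1.02e-22). The other gene at 12 h was Col9a2, by 1.18 (limma adjusted p = 0.00678), a value just under the threshold of 1 without replicate 2 of that chondrogenic group. Against adipogenesis, 5.13% and 7.04% of all genes were called higher and 4.22% and 6.56% lower at 3 and 12 h, and at 72 h 16.5% higher and 9.01% lower. At 72 h the higher genes made up 64.7% of the calls, 52.0% after median-ratio scaling and 39.7% after scaling to the listed genes. Chondrogenesis was higher there in 1 of the 6 cartilage genes at 3 and at 12 h and in 3 of the 4 left without Comp and Prg4 at 72 h, and it was higher in 2, 3 and 3 of the 3 TGF-β genes. Without replicate 3 at 72 h of adipogenesis, the differences at 72 h were 6.32 in place of 6.22 for Sox9, 8.23 in place of 8.78 for Tgfbi and 4.43 in place of 4.35 for Scx, each still called (limma adjusted p = 6.96e-25, 1.33e-22 and 1.05e-11).

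**Figure D3:**
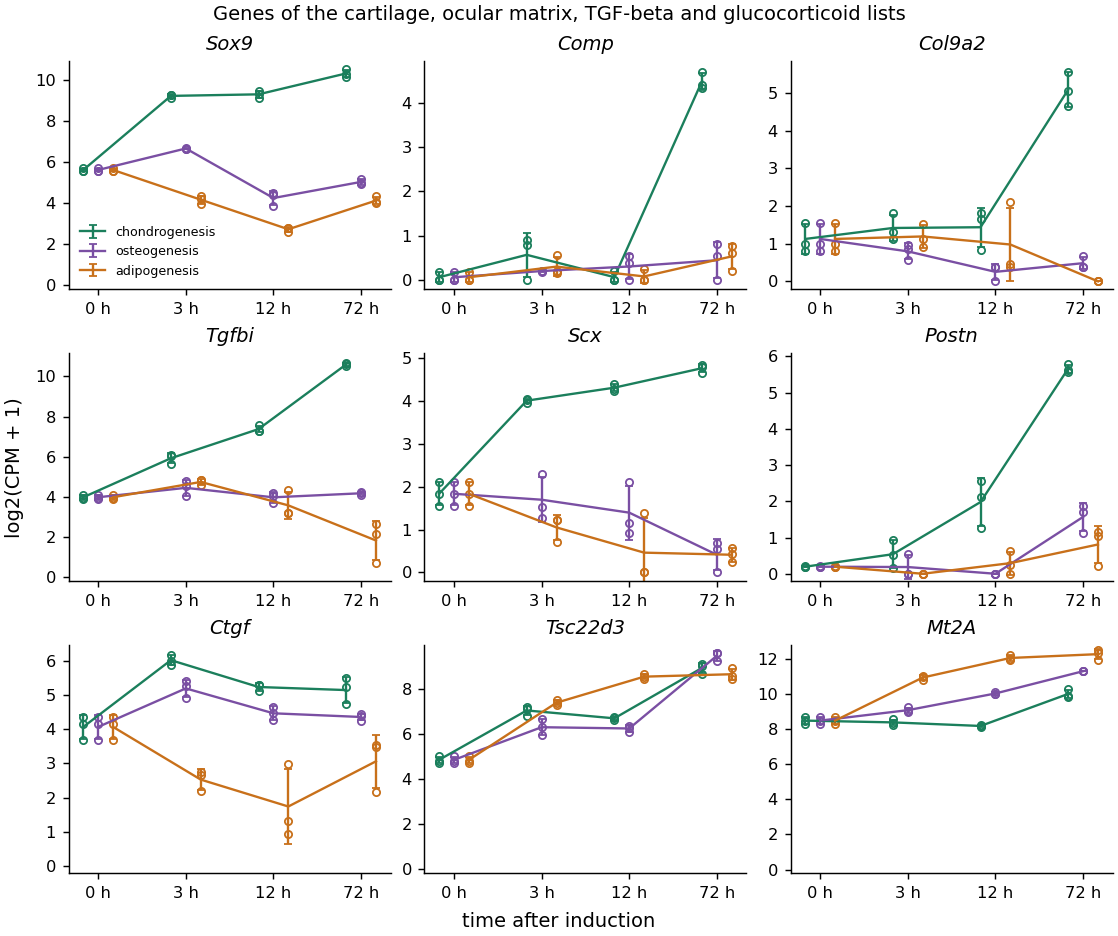
Genes of the cartilage, ocular matrix, TGF-β and glucocorticoid lists as log2(CPM + 1) on the y axis against time after induction on the x axis, with circles for samples and lines through group means with SD bars (n = 3). Sox9, Tgfbi and Scx rise from 3 h in chondrogenesis, Comp, Col9a2 and most of the rise of Postn come at 72 h, and Tsc22d3 rises in each lineage.

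Genes were then ordered by how closely their pattern followed that of Angptl7, with Pearson's r of the 10 group means of log2(CPM + 1). This r is a description over 10 points that share the 0 h samples and the libraries. Of 4362 other genes, 14 had r above 0.9 and 88 above 0.8, and the median r was -0.05. The 10 most alike were Pitpnm3 (0.93), Gbp5 (0.93), Erf (0.92), Eml1 (0.92), Olfm2 (0.92), Fam43b (0.92), Dusp27 (0.91), Tgm5 (0.91), Htr2b (0.91) and Csrp2 (0.91). Their means were higher in each chondrogenic group than at 0 h, which the choice by r favours, so their differences from 0 h are a description and were not counted as calls. Pitpnm3, Dusp27 and Csrp2 reached 1 CPM in chondrogenic samples alone. Pitpnm3, Eml1, Fam43b, Dusp27, Tgm5 and Csrp2 had mean levels of at most 4.74 CPM in any group, so their patterns rested on few reads.

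Htr2b, which encodes a serotonin receptor, had the largest difference from 0 h of these 10. It was listed at 0.286, 0 and 0.152 CPM at 0 h, at 2.94 ± 1.28 and 4.67 ± 1.35 CPM (SD, n = 3) at 3 and 12 h of chondrogenesis, and at 59.5, 67.0 and 69.6 CPM at 72 h. With 3 reads at 0 h, its ratio of read rates at 72 h was 454 with a counting interval of 155 to 2206. At 72 h of adipogenesis it was at 3.92, 3.19 and 0 CPM, and as for Angptl7 the lowest value came from the library that stood apart. Olfm2, which encodes a secreted olfactomedin protein, had a lower mean at 12 h than at 3 h like Angptl7, a change that was not tested, with 4.38 ± 0.591, 2.10 ± 1.16 and 6.80 ± 0.875 CPM (SD, n = 3) at 3, 12 and 72 h of chondrogenesis. Erf, a transcriptional repressor of the ETS family, was at 8.86 ± 1.52 CPM at 0 h and between 14.5 and 17.2 CPM in the chondrogenic means. Gbp5, an interferon-inducible GTPase, was at 6.92, 5.53 and 5.56 CPM at 72 h of chondrogenesis, against 2.63 ± 0.699 CPM (SD, n = 3) at 72 h of osteogenesis. At 72 h of adipogenesis it was at 1.78, 5.85 and 0.792 CPM, which overlapped with chondrogenesis, and all 3 osteogenic samples lay above the mean of 0.470 CPM at 0 h.

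The genes with the most negative r were Ptpn4 (-0.92), Bag4 (-0.91), Clcc1 (-0.88), Shank3 (-0.88) and Cxcl1 (-0.86). Cxcl1, a chemokine that attracts neutrophils, had the largest fall of these at 72 h of chondrogenesis, -3.94 on the log2 scale against -2.39 for Shank3, which encodes a synaptic scaffold protein. At 12 h these values were -2.27 and -1.92. The mean of Cxcl1 was 3230 ± 305 CPM at 0 h and 1107 ± 55.7, 666 ± 30.9 and 209 ± 21.5 CPM (SD, n = 3) at 3, 12 and 72 h of chondrogenesis. At 3 h it was at 6934 ± 1593 CPM in osteogenesis and 9157 ± 264 CPM in adipogenesis. By 72 h Cxcl1 was below 0 h in these lineages too, at 612 ± 25.0 and 1657 ± 132 CPM (SD, n = 3 each). The log2 differences from 0 h there were -2.40 in osteogenesis and -0.96 in adipogenesis. Ptpn4, a tyrosine phosphatase, was at 31.5 ± 5.43 CPM at 0 h and between 15.3 and 18.4 CPM in the chondrogenic means, with 29.8 to 32.0 CPM in the other groups.

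Among the genes of the lists, Sox9 was the most like Angptl7, at place 15 of 4362 (r = 0.90), followed by Scx (0.84), Postn (0.83) and Tgfbi (0.83). Angptl8 and Angptl2 had r of 0.52 and 0.38, and Tsc22d3 had 0.32. When the 72 h group of chondrogenesis was left out, 2 of the 10 most alike, Erf and Pitpnm3, were again among the first 10, which were then led by Rp1, Gpr180 and Fbln2.

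**Figure D4:**
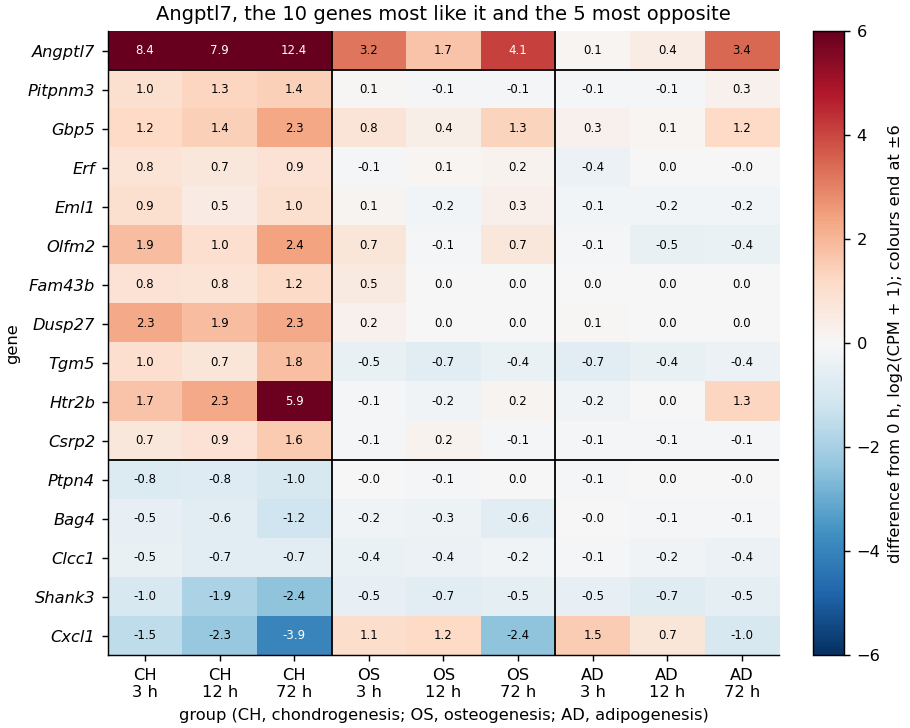
Differences from 0 h in mean log2(CPM + 1) for Angptl7, the 10 genes most like it and the 5 most opposite to it (rows) in the 9 induced groups (columns), with the value in each cell and colours that end at 6 in either direction. The Angptl7 row reaches 12.4 at 72 h of chondrogenesis, while of the genes most like it only Htr2b passes 5.

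Markers of cell types were examined beside these results. The stromal markers Thy1, Itgb1 and Cd44 were above the floor in every group. Thy1 went from 8052 ± 283 CPM at 0 h to 2380 ± 177 CPM at 72 h of chondrogenesis and 427 ± 37.5 CPM at 72 h of adipogenesis (SD, n = 3 each). The summed level of the 7 listed of 8 stromal markers was 16085 to 16892 CPM at 0 h. It was 9106 to 9584 CPM at 72 h of chondrogenesis and 4112 to 4779 CPM at 72 h of adipogenesis, the lowest group. Eng, Vcam1, Pdgfra and Pdgfrb were at or under 3 reads at 72 h of chondrogenesis. The 2 listed of 9 leukocyte markers summed to no more than 2.06 CPM and the 3 listed of 7 endothelial markers to no more than 7.08 CPM in any sample. The chondrocyte markers, all 7 listed, summed to 46.8 to 50.8 CPM at 0 h and 1172 to 1516 CPM at 72 h of chondrogenesis. Nearly all of this was Sox9, at 1152 to 1489 CPM, while Acan, Col2a1, Hapln1 and Matn3 were at or under 3 reads there. The adipocyte markers, 5 of 7 listed and carried by Lpl, summed to 664 to 778 CPM at 0 h and 13.7 to 15.1 CPM at 72 h of chondrogenesis.

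Of 7 osteoblast markers, 6 were listed, and Ibsp was the one whose level was high with that of Angptl7. The sum of the 6 went from 2.58 to 2.86 CPM at 0 h to 202 to 320 CPM at 72 h of chondrogenesis, against 2.86 to 5.30 CPM at 72 h of osteogenesis. Nearly all of it was Ibsp, which encodes bone sialoprotein of bone and mineralising cartilage, at 247 ± 62.9 CPM (SD, n = 3) at 72 h of chondrogenesis. Spp1, which encodes osteopontin, was at 0.870 ± 0.568 CPM (SD, n = 3), and Alpl, Sp7, Bglap and Dmp1 were at or under 3 reads there. The part of these marker levels in the level of Angptl7 was not tested.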

How the data were processed

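RNA-seq values of 30 rat BMSC samples were used. Trimmomatic, HISAT2 and StringTie are named in the submitters' processing notes; versions, genome build and strand of counting are not given in the sources used here. The labels describe ribosomal RNA removal, the study's methods an mRNA kit. The authors deposited values named FPKM, but they are CPM: in every sample 100% were whole multiples of 1 step (tolerance 0.01 reads), which gave the reads. Per sample, 10803 values under 9999 names were read, and 729 repeated names were summed. The listed genes held 38.9 to 71.4% of the total. The test planned for FPKM was used for CPM: limma 3.58.1 with trend (R 4.3.3) on log2(CPM + 1), 10 groups, no covariates, two-sided, in 15 comparisons. SEs are limma's. edgeR 4.0.16 on the recovered reads was an alternative, with other pseudocounts, filters and scalings, fits on 6 samples, a replicate block and each replicate left out. Simulated data were used to test the fits.

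Angptl7 and the gene lists were chosen with earlier results of these data known. Named were Angptl7, family and Tie genes, its neighbours in the annotation, up to 4 called and 2 uncalled genes of each list, the 10 most like and the 5 most opposite genes, and the markers needed. Housekeeping genes were looked up after seeing the values, and it was then also chosen to leave out of list counts the genes that pass the filter only through 1 of the groups compared, and to give the adipogenic ratios of Angptl7 without the libraries that stand apart. RefSeq names, and the positions that gave the neighbours of Angptl7, came from GRCr8. The build of the files is unknown and may differ from it. Figures were made with Python 3.11.15 and matplotlib 3.10.9. Results on transcription factor networks and the staining assays were left out.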

Additional observations from a re-analysis of the deposited data

Results flagged for a closer look

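Several list genes changed in opposite directions from the shared 0 h samples in chondrogenesis and in another lineage, and the direct test between the lineages (limma, adjusted over all tested genes) was past the threshold. Differences are chondrogenesis minus the other lineage in log2(CPM + 1).

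For Sox9 the difference from adipogenesis was 5.07 at 3 h, 6.60 at 12 h and 6.22 at 72 h (limma adjusted p = 1.08e-21, 6.23e-25 and 1.13e-24), and from osteogenesis 5.07 at 12 h (limma adjusted p = 1.1e-21). For Angptl8 it was 2.62 from osteogenesis and 4.37 from adipogenesis at 72 h (limma adjusted p = 6.58e-10 and 5.25e-15), where the fall from 0 h in osteogenesis, -1.02, was not called without replicate 1 of that group (-0.77) or replicate 3 of 0 h (-0.96). For Scx it was 3.85 from adipogenesis at 12 h, and at 72 h 4.35 from osteogenesis and 4.35 from adipogenesis (limma adjusted p = 8.17e-11, 2.79e-12 and 1.95e-12). For Ctgf, whose calls against 0 h at 12 and 72 h of chondrogenesis and at 72 h of adipogenesis depended on the setting, the differences from adipogenesis were 3.48, 3.49 and 2.08 at 3, 12 and 72 h (limma adjusted p = 3.62e-09, 2.35e-09 and 9.18e-06). At 72 h the differences from adipogenesis were 5.09 for Col9a2, 8.78 for Tgfbi and -5.31 for Lum (limma adjusted p = 1.84e-13, 2.12e-20 and 6.73e-07). The fall of Col9a2 from 0 h in adipogenesis, -1.13, was not called without replicate 2 of 0 h (-0.91). The rise of Lum from 0 h in adipogenesis, 2.92, was not called in a fit on the 6 samples alone (limma adjusted p = 0.147). Lum was at 1355 and 1513 CPM in 2 adipogenic samples of 72 h and at 27.1 CPM in replicate 3, the library that stood apart. Without that replicate the difference of Lum was -7.20 (limma adjusted p = 5.12e-19), that of Ctgf 1.63 (limma adjusted p = 0.000171) and that of Angptl8 4.13 (limma adjusted p = 2.05e-14). Without replicate 1 at 12 h of adipogenesis, the differences at 12 h were 4.10 for Ctgf, 4.31 for Scx and 6.63 for Sox9 (limma adjusted p = 3.2e-12, 4.43e-12 and 2.67e-23).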

How the results depend on the processing

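The log2 difference of Angptl7 from 0 h in chondrogenesis kept its direction with the other pseudocount, the other scalings, edgeR and each replicate left out. With a pseudocount of 0.1 it was 9.81, 9.35 and 13.82 at 3, 12 and 72 h, and with edgeR on the recovered reads 9.60, 9.27 and 13.91. Median-ratio scaling gave 8.16 at 3 h, and quantile normalization 11.84 at 72 h. With each replicate left out in turn it ranged from 8.30 to 8.53, 7.76 to 8.11 and 12.28 to 12.54. The 10 genes most like Angptl7 were less stable: 1 was shared with Spearman's rho, 5 with the 30 samples in place of group means, 5 with a pseudocount of 0.1 and 2 without the 72 h group of chondrogenesis. The counts of list genes called at 72 h of chondrogenesis stayed within 1.5 times under all alternatives. Cartilage genes called at 72 h, Comp included, were 4, and with a replicate left out 3 to 4, since Comp then failed the filter, and TGF-β genes 2 to 3, since Ctgf was lost. The other 14 comparisons gave 136 calls in all, genes favoured by the filter included, with 134 to 138 when a replicate was left out. Without those genes they gave 129 calls, with 125 to 134 over all alternatives. Of the calls at 3 h of chondrogenesis 72.9% were higher, and 53.2% after median-ratio scaling, which moved the median gene by 0.21. At 12 h these shares were 65.4% and 46.2%, and the shift was 0.14. At 72 h they were 64.6% and, after scaling to the listed genes, 52.7%. Against osteogenesis the share went from 69.3 to 56.6% with quantile normalization at 3 h and from 44.4 to 57.9% with edgeR at 12 h. The replicate numbers showed no pairing of induced samples with 0 h (correlations of -0.085 to 0.096), and pairing between induced groups was not examined. With the replicate block the other 14 comparisons again gave 136 calls (129 without the favoured genes) and the family, cartilage, TGF-β and glucocorticoid lists 1, 4 (Comp included), 3 and 2. The cause of these shifts was not tested. Depth limits the 0 h level of Angptl7, at 10 reads in all.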
